A study of Homo sapiens with 24 samples.

Results

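Expression of 9 luminal and pioneer transcription factors was examined in T-47D cells, a human ER-positive luminal breast cancer line, with WT or mutant estrogen receptor alpha (ER) and after transfection of miRNA mimics or an inhibitor. The 9 genes are FOXA1, GATA3, TFAP2A, TFAP2C, SPDEF, XBP1, ELF3, GRHL2 and RUNX1, chosen by symbol from the 26364 genes counted. All 9 were present in every table and passed the filter on low counts in every comparison. Poly-A RNA-seq covered 24 libraries in 12 conditions, with 2 libraries per condition. Both libraries of a condition came from different clones of the same ER genotype. Cells were kept in hormone-deprived medium, transfected at 10 nM and harvested after 24 h. Y537S cells received a mimic of miR-301b-3p, a mimic of miR-331-3p, a mimic negative control, an inhibitor of let-7f-5p or an inhibitor negative control. D538G cells received a mimic of miR-301b-3p, a mimic of miR-181c-5p or the mimic negative control. WT cells received a mimic of miR-331-3p, miR-181c-5p or miR-301b-3p, or the mimic negative control. The mutations sit heterozygously in the endogenous ESR1 gene, which encodes ER. Each genotype is represented by 2 clones only, so genotype and clone cannot be told apart in comparisons between genotypes. The Y537S clones are named 1 and 2, the D538G clones A5 and C2, and the WT clones D1 and D4.

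These factors help to set and hold the luminal identity of mammary epithelium. FOXA1 and GATA3 are pioneer factors that bind closed chromatin and open sites at which ER can bind. TFAP2A and TFAP2C (AP-2alpha and AP-2gamma) also bind at ER-occupied enhancers. SPDEF and ELF3 are epithelial factors of the ETS family, with SPDEF known from secretory luminal cells. XBP1 is an estrogen-induced bZIP factor that drives the unfolded protein response of the endoplasmic reticulum once its mRNA is spliced by IRE1. GRHL2 maintains epithelial junction genes, and RUNX1 works with its partner CBFB in luminal cells. A miRNA lowers mRNAs that carry matches to its seed, bases 2 to 8, mostly in the 3′ untranslated region (3′UTR). A mimic adds miRNA activity, and an inhibitor removes it.

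The mature miRNAs are shown first because the seed decides which transcripts can pair with each mimic. Sequences and positions are from RefSeq on GRCh38.p14, 5′ to 3′, with the seed in capitals.
hsa-miR-301b-3p: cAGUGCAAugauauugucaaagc
hsa-miR-331-3p: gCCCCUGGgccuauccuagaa
hsa-miR-181c-5p: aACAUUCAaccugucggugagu
hsa-let-7f-5p: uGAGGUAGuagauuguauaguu
They lie at chr22:21653025-21653047 (+) for miR-301b-3p, chr12:95308480-95308500 (+) for miR-331-3p and chr19:13874725-13874746 (+) for miR-181c-5p. The mature let-7f-5p has 2 copies, at chr9:94176353-94176374 (+) and chrX:53557246-53557267 (−). No seed is shared between the 4 miRNAs.

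The 3′UTR of the canonical transcript of each factor (GENCODE, GRCh37) was searched on the transcript strand for the 7 bases that pair with each seed. These are TTGCACT for miR-301b-3p, CCAGGGG for miR-331-3p, TGAATGT for miR-181c-5p and CTACCTC for let-7f-5p. No factor held the miR-301b-3p or the let-7f-5p match. The miR-331-3p match was in SPDEF and RUNX1, and the miR-181c-5p match was in FOXA1 and RUNX1. Among 18770 genes with a 3′UTR, 14.2% held the miR-301b-3p match, 14.1% the miR-331-3p match, 19.4% the miR-181c-5p match and 9.84% the let-7f-5p match. The 4 matches in these factors are printed with the bases around them because they are the only places where a mimic could pair through its full seed with the searched windows. The match is in capitals.
SPDEF, miR-331-3p: gggcaaccaactgccCCAGGGGg
RUNX1, miR-331-3p: cgccggccccagcacCCAGGGGa
RUNX1, miR-181c-5p: ttgttctaggggaaaTGAATGTg
FOXA1, miR-181c-5p: tgtctgttgttataaTGAATGTg
They lie on the minus strand of GRCh37, at chr6:34505893-34505915, chr21:36164149-36164171, chr21:36160667-36160689 and chr14:38059050-38059072. The RUNX1 match to miR-331-3p alone was followed by an A, which makes an 8-base match. A match is a description of letters, and pairing was not measured here.

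Libraries held 31379962 to 50526442 gene counts (median 39878595). Levels are given in CPM, the counts of each library scaled to a common total, with TMM scaling over all 24 libraries. The luminal label was checked first, and 18 of 20 luminal markers were above 1 CPM in every library, and their summed level was 17597 to 22658 CPM. Summed basal and myoepithelial markers reached 30.0 to 45.9 CPM. Summed stromal, endothelial and immune markers reached 53.4 to 87.2 CPM, mostly from the stromal gene COL1A1, at 47.3 to 81.0 CPM. The endothelial marker CDH5 was at 0 counts in every library. ESR1, the mutated gene, was at 118 and 116 CPM in WT control clones, 256 and 168 CPM in Y537S and 241 and 239 CPM in D538G. Its log2 difference from WT was 0.88 ± 0.173 (SE; edgeR adjusted p = 0.00907) in Y537S and 1.04 ± 0.066 (edgeR adjusted p = 1.2e-05) in D538G. Bulk RNA cannot tell fewer cells of a type apart from less RNA per cell.

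Per kilobase of annotated exon, GATA3 and XBP1 were the most abundant of the 9 factors. Over the 6 mimic negative control libraries, GATA3 was at 449 ± 10.4 CPM per kb (mean ± SD, n = 6) and XBP1 at 319 ± 33.2. SPDEF followed at 121 ± 28.1 and FOXA1 at 105 ± 11.7. GRHL2 (43.6 ± 3.36), TFAP2A (43.3 ± 8.33) and TFAP2C (42.2 ± 3.72) formed a middle group. ELF3 (6.68 ± 1.11) and RUNX1 (3.41 ± 0.586) were lowest. The ranges of the 6 libraries overlapped between SPDEF and FOXA1, between GRHL2 and TFAP2A and between TFAP2A and TFAP2C, and were separate for the other neighbours in this order. Dividing by the length of the canonical transcript instead put XBP1 (540) above GATA3 (495), FOXA1 (132) above SPDEF (121) and TFAP2A (113) above GRHL2 (50.4). FOXA1 and TFAP2A share exonic bases with an antisense gene of the tables, TTC6 (16 bases) and TFAP2A-AS1 (438 bases), and the strand setting of the counting is not given in the sources used here.

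The factors differed in how far they moved over the series. The highest of 24 libraries stood above the lowest by 2.37 times for SPDEF, 2.14 for ELF3, 1.94 for RUNX1 and 1.86 for TFAP2A. The ratio was 1.63 for XBP1, 1.58 for FOXA1, 1.41 for TFAP2C and 1.37 for GRHL2. GATA3, at 1363 to 1721 CPM, had the smallest ratio, 1.26.

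**Figure D1:**
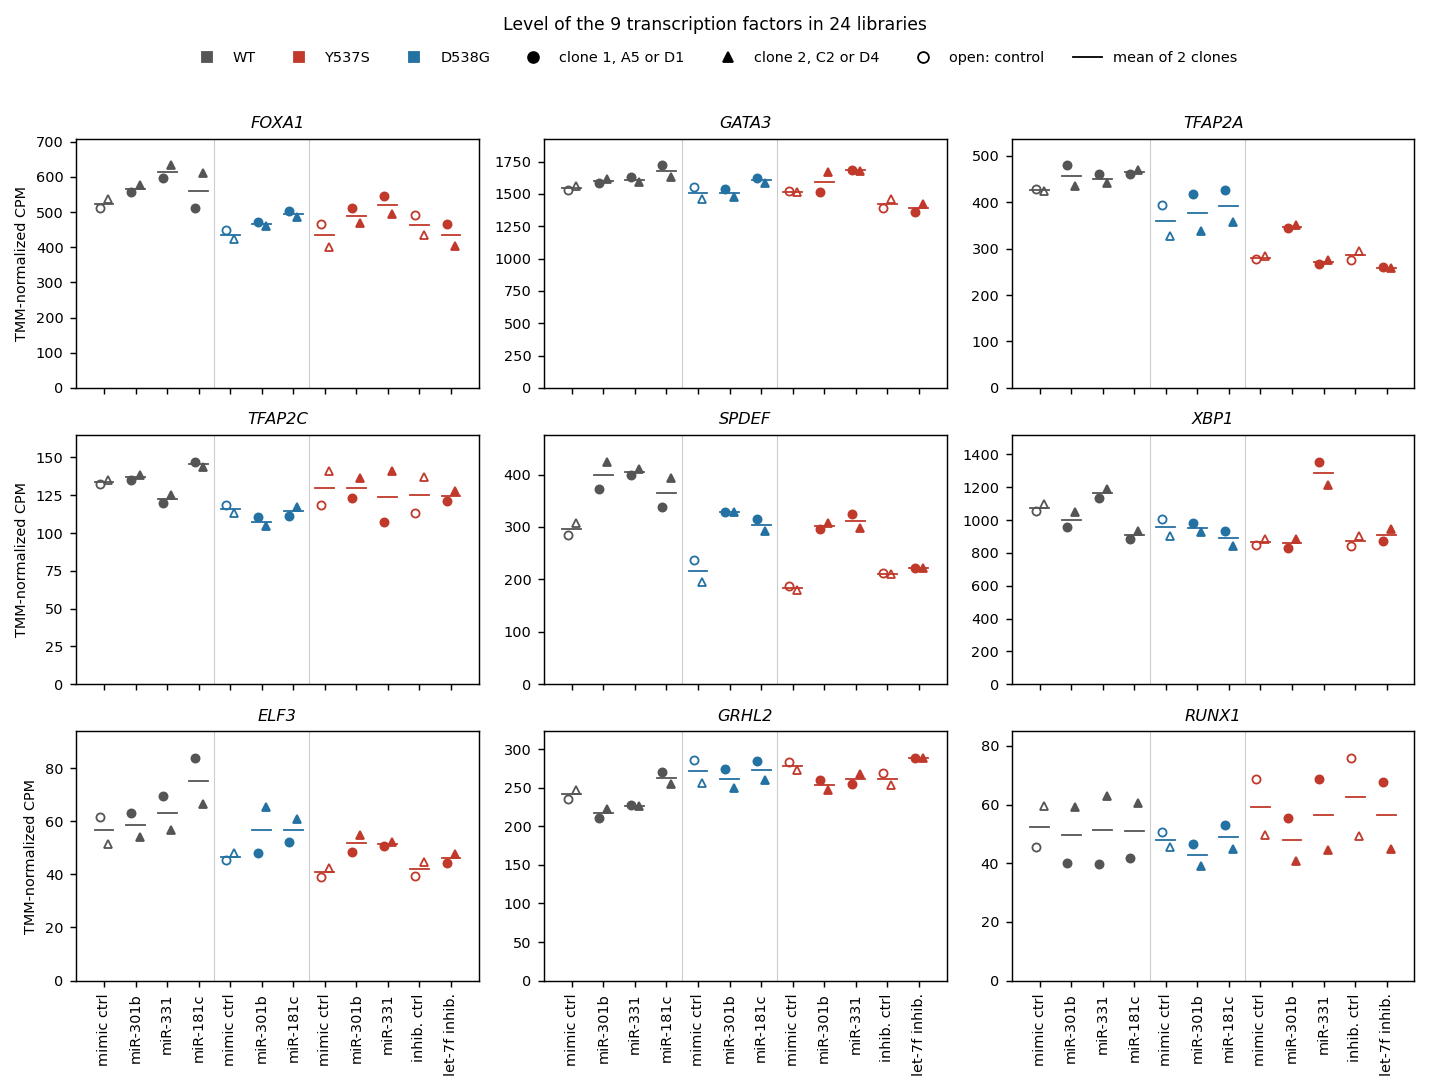
Level of each of the 9 factors (CPM after TMM scaling, linear axis) in the 12 conditions, with 1 point per library, circles and triangles for the 2 clones of a genotype and open symbols for negative controls. SPDEF stands above its control in both clones under every mimic, while GATA3 stays between 1363 and 1721 CPM.

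Levels by genotype were compared in the mimic negative control, the condition that all 3 genotypes share. SPDEF, TFAP2A, ELF3 and XBP1 were lower in Y537S than in WT cells, and SPDEF, FOXA1 and TFAP2C were lower in D538G than in WT cells. No factor was called higher in a mutant in the main edgeR fit. GRHL2 was called higher in Y537S by DESeq2, under a GC correction, without the filter and with all 24 libraries in 1 fit. These are 4 of 9 factors for Y537S, where 29.0% of the 15106 genes tested were called and 12.7% were called lower. They are 3 of 9 for D538G, where 38.9% of 14942 genes were called and 18.5% were called lower. Counted in either direction, the D538G share was near its background. With 9 factors these counts are a description, and no test of the list was made. The median log2 difference of the 9 was −0.24 in Y537S and −0.21 in D538G, beside 0.00 over all genes in each.

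SPDEF was at 284 and 307 CPM in the WT control clones, 187 and 179 CPM in Y537S and 238 and 196 CPM in D538G. All 4 mutant libraries were below both WT libraries. The log2 difference from WT was −0.66 ± 0.078 (SE, n = 2 per group; edgeR quasi-likelihood test with Benjamini-Hochberg adjustment, adjusted p = 0.0012) in Y537S cells. It was −0.44 ± 0.094 (edgeR adjusted p = 0.00511) in D538G cells. TFAP2A was at 429 and 423 CPM in WT, 278 and 284 CPM in Y537S and 394 and 326 CPM in D538G, again with no overlap between mutant and WT clones. Its log2 difference was −0.57 ± 0.072 (edgeR adjusted p = 0.00156) in Y537S and −0.24 ± 0.087 (edgeR adjusted p = 0.0547) in D538G, which DESeq2 placed at adjusted p = 0.0248.

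ELF3 was at 61.7 and 51.4 CPM in WT, 39.2 and 42.3 CPM in Y537S and 45.3 and 48.1 CPM in D538G. Both mutant groups were below WT, by −0.44 ± 0.119 (edgeR adjusted p = 0.0292) in Y537S and −0.27 ± 0.103 (edgeR adjusted p = 0.0622) in D538G on the log2 scale. Without WT clone D1, the Y537S difference in ELF3 was −0.31 and was not called (edgeR adjusted p = 0.255). XBP1 was at 1055 and 1096 CPM in WT, 850 and 885 CPM in Y537S and 1008 and 904 CPM in D538G. It differed by −0.28 ± 0.077 (edgeR adjusted p = 0.0312) in Y537S and by −0.17 ± 0.068 (edgeR adjusted p = 0.0834) in D538G, with no overlap. The XBP1 call in Y537S was lost without WT clone D1 (−0.31, edgeR adjusted p = 0.163) or D4 (−0.26, edgeR adjusted p = 0.232).

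FOXA1 was at 510.5 and 536.9 CPM in WT, 467 and 401 CPM in Y537S and 449 and 423 CPM in D538G. All mutant libraries were below WT. The log2 difference was −0.26 ± 0.065 (edgeR adjusted p = 0.0115) in D538G and −0.24 ± 0.093 (edgeR adjusted p = 0.0903) in Y537S. Without WT clone D4 the D538G value was −0.23 (edgeR adjusted p = 0.0723). TFAP2C was at 133 and 135 CPM in WT and 119 and 113 CPM in D538G, a log2 difference of −0.21 ± 0.071 (edgeR adjusted p = 0.0457). That call was lost without clone C2 (−0.17, edgeR adjusted p = 0.171), D1 (−0.23, edgeR adjusted p = 0.121) or D4 (−0.20, edgeR adjusted p = 0.184). In Y537S, TFAP2C was at 119 and 141 CPM, on both sides of WT.

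GRHL2 was the only factor above WT in every mutant library, at 236 and 248 CPM in WT, 283 and 273 CPM in Y537S and 286 and 256 CPM in D538G. The log2 difference was 0.23 ± 0.074 (edgeR adjusted p = 0.0535) in Y537S and 0.17 ± 0.075 (edgeR adjusted p = 0.103) in D538G, and DESeq2 called the Y537S value (adjusted p = 0.0446). GATA3 differed from WT by 0.00 ± 0.075 in Y537S (95% interval −0.17 to 0.18) and −0.03 ± 0.059 in D538G (−0.17 to 0.10). RUNX1 differed by 0.20 ± 0.179 and −0.12 ± 0.126, and its clones overlapped WT in Y537S. The Y537S clones 1 and 2 were 68.5 and 49.8 CPM of RUNX1.

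Between the 2 mutants none of the 9 factors was called by edgeR, while 6.19% of 14935 genes were (3501 genes at an unadjusted p under 0.05, of which 1 was a member). That member was TFAP2A, at −0.34 ± 0.106 in Y537S relative to D538G (edgeR adjusted p = 0.11, DESeq2 adjusted p = 0.0316).

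**Figure D2:**
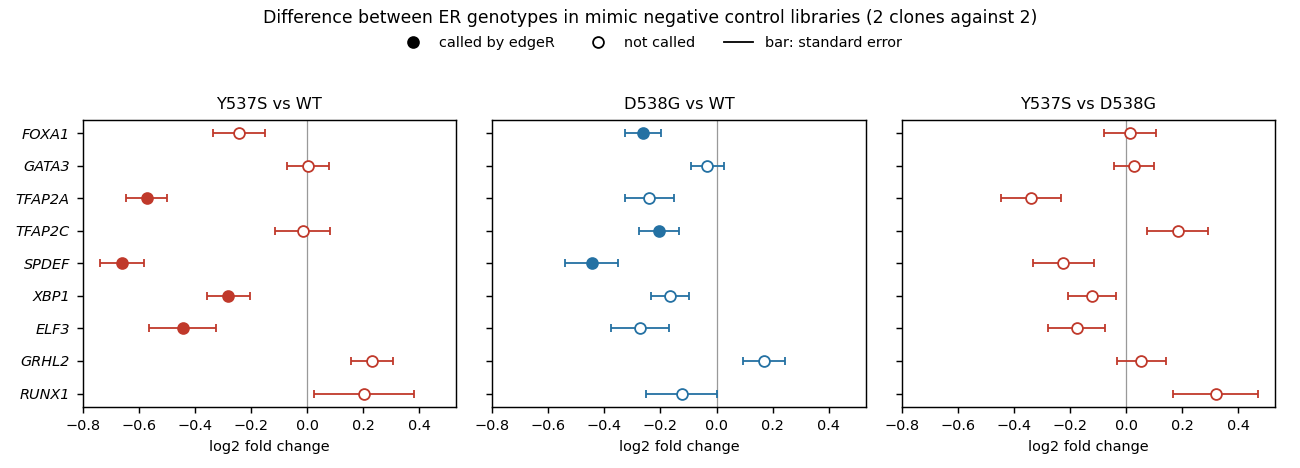
Log2 difference (±SE) of each factor between mutant and WT clones, and between the mutants, in the mimic negative control, with filled symbols for edgeR adjusted p under 0.05. SPDEF and TFAP2A show the largest differences between Y537S and WT, at −0.66 and −0.57, and GRHL2 lies above 0 against WT in both mutants.

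Each treatment was then compared with its own negative control in clones of the same genotype. Across 8 treatments and 9 factors, 12 of 72 tests were called, 11 higher and 1 lower. SPDEF gave 7 of the 12 calls, ELF3 and XBP1 2 each and FOXA1 1. GATA3, TFAP2A, TFAP2C, GRHL2 and RUNX1 were not called in any treatment by edgeR. Of their 40 treatment tests 2 had an unadjusted p under 0.05, TFAP2A after miR-301b-3p and GATA3 after miR-331-3p, both in Y537S, and DESeq2 called the first. All mimic comparisons within a genotype share the same 2 control libraries.

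Counts of factors were read against all genes. After miR-301b-3p, SPDEF alone was called in each genotype, 1 of 9, where 3.57% of 15145 genes were called in Y537S, 11.8% of 14845 in D538G and 8.50% of 15113 in WT. After miR-331-3p, SPDEF, XBP1 and ELF3 were called in Y537S (3 of 9, background 33.0% of 14877) and SPDEF and FOXA1 in WT (2 of 9, background 24.8% of 15140). After miR-181c-5p, SPDEF was called in D538G (1 of 9, background 9.52% of 14826) and SPDEF, ELF3 and XBP1 in WT (3 of 9, background 16.4% of 14968). A count of 1 to 3 in 9 is a description, and no test of the list was made. The median log2 change of the 9 was 0.18 after miR-331-3p in Y537S and ranged from −0.01 to 0.11 in the others, beside −0.01 to 0.01 over all genes. With the GC correction described below it was 0.03 after miR-331-3p in Y537S, and 0.14 after miR-181c-5p in D538G was the highest.

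Libraries of the same clone deviated together, most in Y537S cells. A fit with the clone as a block raised most of the counts, and why they rose was not tested. With so few libraries the block leaves little to estimate the spread of a single gene. Its p-values lean on the spread shared across genes and are read with caution. With the block, 6 of 9 factors were called after miR-301b-3p in Y537S (background 38.4%), 2 in D538G (33.3%) and 3 in WT (28.2%). After miR-331-3p, 5 were called in Y537S (60.7%) and 4 in WT (37.0%). After miR-181c-5p, 4 were called in D538G (29.3%) and 3 in WT (27.9%). Blocked values are given below where they change a call.

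**Figure D3:**
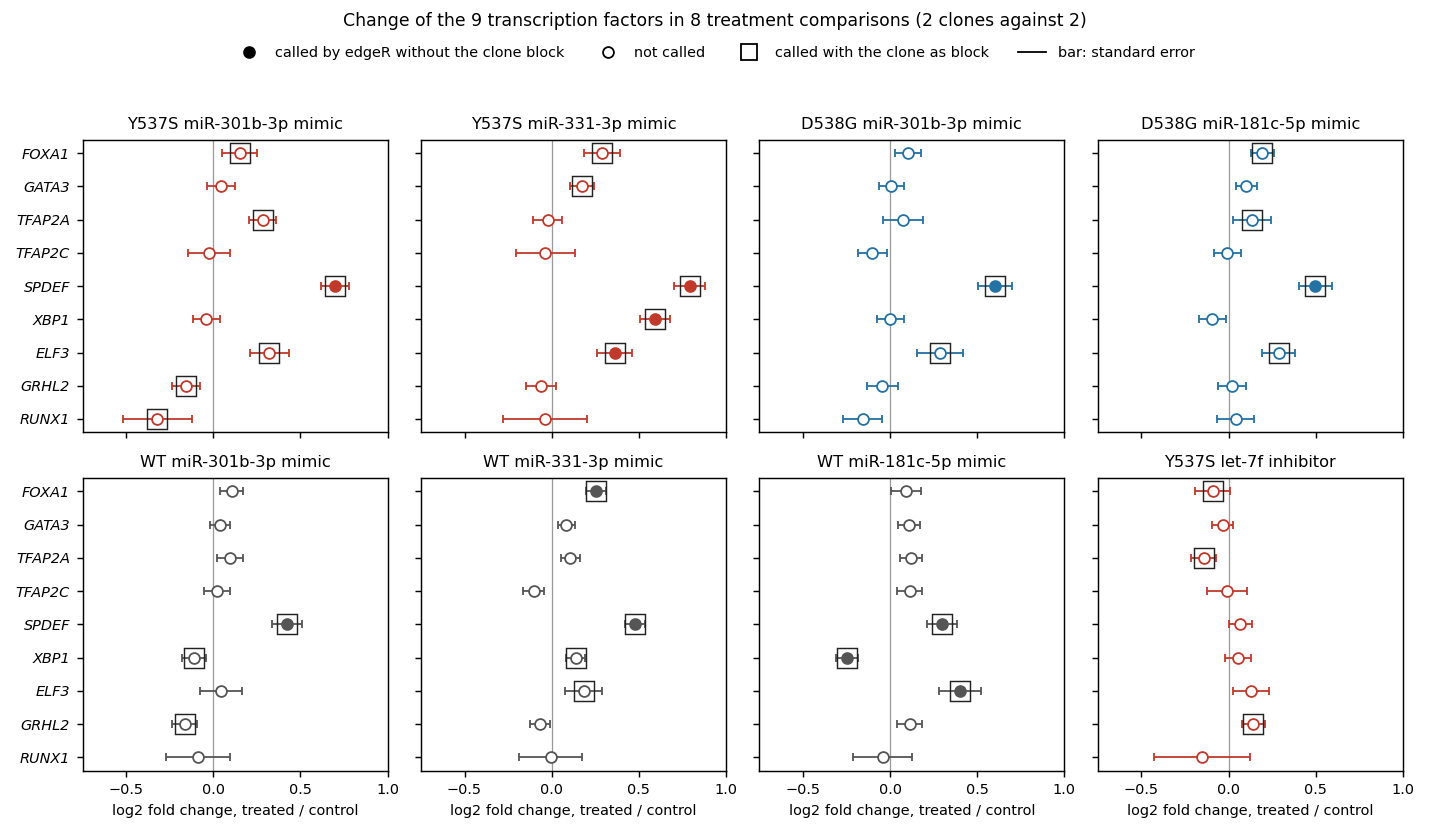
Log2 fold change (±SE) of each factor in the 8 treatment comparisons. Filled symbols were called by edgeR at adjusted p under 0.05 and squares were called with the clone as a block. SPDEF is filled in all 7 mimic comparisons and lies near 0 for the let-7f-5p inhibitor.

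SPDEF, the ETS factor of secretory luminal cells, was up-regulated by all 3 mimics in every genotype in which they were given, in the fit without GC correction. With that correction the 3 WT changes lay between −0.04 and 0.06 and were not called. In Y537S clones 1 and 2, SPDEF was at 187 and 179 CPM with the mimic control, 297 and 307 CPM after miR-301b-3p and 324 and 298 CPM after miR-331-3p. In D538G clones A5 and C2 it was at 238 and 196 CPM with the control, 328 and 328 CPM after miR-301b-3p and 315 and 293 CPM after miR-181c-5p. In WT clones D1 and D4 it was at 284 and 307 CPM with the control, 373 and 424 CPM after miR-301b-3p, 399 and 411 CPM after miR-331-3p and 338 and 394 CPM after miR-181c-5p. Treated and control libraries did not overlap in any of the 7 comparisons, and SPDEF was higher in 14 of 14 same-clone pairs.

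The largest SPDEF changes were in Y537S cells. The log2 fold change was 0.79 ± 0.090 after miR-331-3p (edgeR adjusted p = 0.00627) and 0.70 ± 0.082 after miR-301b-3p (edgeR adjusted p = 0.0235), or 1.73 and 1.62 times on the linear scale. In D538G cells it was 0.60 ± 0.097 after miR-301b-3p (edgeR adjusted p = 0.00713) and 0.50 ± 0.097 after miR-181c-5p (edgeR adjusted p = 0.0146). WT cells showed 0.48 ± 0.060 after miR-331-3p (edgeR adjusted p = 0.000459), 0.42 ± 0.0835 after miR-301b-3p (edgeR adjusted p = 0.0221) and 0.30 ± 0.086 after miR-181c-5p (edgeR adjusted p = 0.0398). SPDEF rose after miR-331-3p although its 3′UTR holds the 7-base match printed above. Leaving out 1 library ended the call in 3 of the 7. The Y537S miR-301b-3p call was lost without control clone 1 (0.73, edgeR adjusted p = 0.0747) or clone 2 (0.67, edgeR adjusted p = 0.0634), and the WT miR-301b-3p call without control clone D1 (0.37, edgeR adjusted p = 0.132). The WT miR-181c-5p call was lost without treated clone D4 (0.16, edgeR adjusted p = 0.255), control clone D1 (0.24, edgeR adjusted p = 0.247) or control clone D4 (0.35, edgeR adjusted p = 0.0904).

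SPDEF is also the most GC-rich of the 9 transcripts, and GC-rich genes were higher as a class under each mimic. Its canonical transcript is 64.6% GC, above 95.4% of 12785 genes with a mean of at least 1 CPM, while the other 8 factors are at 46.2% to 53.7%. In the 10% of genes richest in GC, the median log2 fold change was 0.35 after miR-301b-3p and 0.56 after miR-331-3p in Y537S, and 0.36 and 0.38 after miR-301b-3p and miR-181c-5p in D538G. In WT it was 0.38, 0.50 and 0.35 after miR-301b-3p, miR-331-3p and miR-181c-5p. The median over all genes lay between −0.01 and 0.01 in these comparisons. After the let-7f-5p inhibitor the GC-richest 10% had a median of −0.02, and SPDEF was at 222 and 222 CPM against 213 and 210 CPM in the inhibitor control.

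With a smooth GC trend removed from each library, the SPDEF change was smaller in all 7 mimic comparisons, and 1 of 7 was called. In Y537S it was 0.40 after miR-331-3p (edgeR adjusted p = 0.0275) and 0.37 after miR-301b-3p (edgeR adjusted p = 0.124). In D538G it was 0.27 after miR-301b-3p (edgeR adjusted p = 0.159) and 0.15 after miR-181c-5p (edgeR adjusted p = 0.478). WT values were 0.06 after miR-301b-3p (edgeR adjusted p = 0.607), 0.03 after miR-331-3p (edgeR adjusted p = 0.808) and −0.04 after miR-181c-5p (edgeR adjusted p = 0.798), so the direction turned in the last. With the GC correction and the clone block together, the 4 mutant comparisons were called, at adjusted p of 3.92e-07, 2.05e-12, 0.000683 and 0.00229 in the order above, and the 3 WT comparisons were not (edgeR adjusted p = 0.276, 0.673 and 0.669). The part of GC content in the SPDEF changes was not tested beyond these fits. The genotype difference in SPDEF kept its size under the correction, at −0.70 in Y537S and −0.54 in D538G relative to WT.

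**Figure D4:**
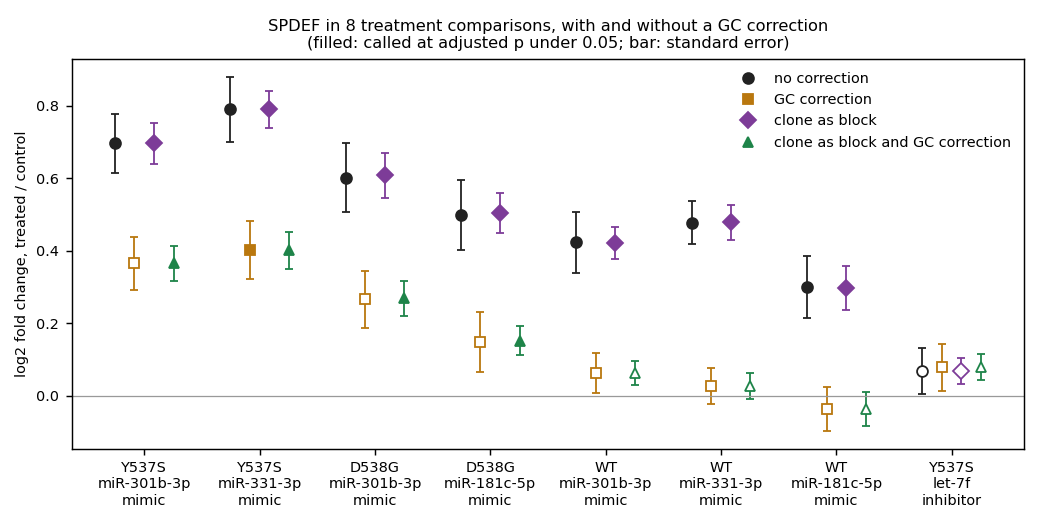
SPDEF log2 fold change in the 8 treatment comparisons under 4 fits (no correction, GC correction, clone block, and both), with filled symbols for edgeR adjusted p under 0.05. Uncorrected mimic values lie between 0.30 and 0.79, and corrected values between −0.04 and 0.40, with the WT comparisons near 0.

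ELF3, the other ETS factor, was higher than control in all 14 same-clone mimic pairs, with smaller changes. In Y537S it was at 39.2 and 42.3 CPM with the mimic control, 50.6 and 52.2 CPM after miR-331-3p and 48.6 and 54.9 CPM after miR-301b-3p. In WT it was at 61.7 and 51.4 CPM with the control and 83.8 and 66.4 CPM after miR-181c-5p. These treated libraries all lay above their controls.

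ELF3 was called after miR-331-3p in Y537S, 0.36 ± 0.101 (edgeR adjusted p = 0.0424), and after miR-181c-5p in WT, 0.40 ± 0.12 (edgeR adjusted p = 0.0457). The first call was lost without any 1 of its 4 libraries (0.31 to 0.43). The second was lost without treated clone D1 (0.23, edgeR adjusted p = 0.203) or control clone D4 (0.27, edgeR adjusted p = 0.27). Under the GC correction they were 0.20 (edgeR adjusted p = 0.186) and 0.34 (edgeR adjusted p = 0.106). With the clone block, ELF3 was also called after miR-301b-3p in Y537S (0.32, edgeR adjusted p = 0.000767) and D538G (0.29, edgeR adjusted p = 0.0055), after miR-181c-5p in D538G (0.29, edgeR adjusted p = 0.00217) and after miR-331-3p in WT (0.18, edgeR adjusted p = 0.0325). In D538G the 2 clones differed after miR-301b-3p, at 48.2 CPM in A5 and 65.2 CPM in C2 against 45.3 and 48.1 CPM, and without treated clone A5 the change was 0.48 and was called (edgeR adjusted p = 0.0197). After miR-301b-3p in WT it was 0.04 ± 0.118.

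FOXA1, the pioneer factor that opens ER binding sites, was also at or above its control in all 14 same-clone mimic pairs. In WT cells it was at 510.5 and 536.9 CPM with the control and 597 and 633 CPM after miR-331-3p, with no overlap. The log2 fold change was 0.26 ± 0.057 (edgeR adjusted p = 0.0081), and 0.30 under the GC correction (edgeR adjusted p = 0.00968). The call was lost without treated clone D4 (0.22, edgeR adjusted p = 0.0691). In Y537S cells FOXA1 was at 467 and 401 CPM with the control and 545 and 495 CPM after miR-331-3p, a change of 0.29 ± 0.105 (edgeR adjusted p = 0.0871, and 1.32e-05 with the clone block). The Y537S and WT changes after miR-331-3p differed by 0.02 ± 0.127 (95% interval −0.27 to 0.31).

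FOXA1 holds a miR-181c-5p match, and its level was not lower after that mimic. It was at 502 and 487 CPM against 449 and 423 CPM in D538G, 0.19 ± 0.067 (edgeR adjusted p = 0.102, and 0.00157 with the clone block). WT levels were 512 and 610 CPM against 510.5 and 536.9 CPM, 0.09 ± 0.087. After miR-301b-3p the change was 0.15 ± 0.099 in Y537S (edgeR adjusted p = 0.0156 with the block; 0.05 to 0.27 on leaving out 1 library without it), 0.10 ± 0.074 in D538G and 0.10 ± 0.067 in WT.

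GATA3, the second pioneer factor, had the narrowest range of changes, from 0.01 to 0.18 across the 7 mimic comparisons, with no call. The largest change in either direction was smaller for TFAP2C (−0.10 to 0.11) and GRHL2 (−0.16 to 0.11). The largest GATA3 change was after miR-331-3p in Y537S, 1687 and 1679 CPM against 1521 and 1516 CPM. Treated and control clones did not overlap, and the change was 0.18 ± 0.069 (edgeR adjusted p = 0.107). It was called with the clone block (edgeR adjusted p = 0.000442), and it was 0.00 under the GC correction. In the other 6 mimic comparisons the 95% intervals of GATA3 lay within −0.15 and 0.25.

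Among the AP-2 factors, TFAP2A was higher after miR-301b-3p in Y537S, at 345 and 350 CPM against 278 and 284 CPM. Treated and control libraries did not overlap, and the clones were higher by 0.31 and 0.30 on the log2 scale. The fitted change was 0.29 ± 0.078 (edgeR adjusted p = 0.102), and it was called with the clone block (edgeR adjusted p = 5.02e-06) and by DESeq2 (adjusted p = 0.0297). The change was 0.08 ± 0.116 in D538G and 0.09 ± 0.074 in WT for the same mimic. The Y537S response exceeded that of WT by 0.21 ± 0.107 (edgeR adjusted p = 1), so a difference between genotypes was not shown.

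After miR-331-3p TFAP2A stayed at 267 and 275 CPM in Y537S, −0.02 ± 0.084, and was at 460 and 441 CPM in WT, 0.11 ± 0.054 (edgeR adjusted p = 0.182; 0.20 and adjusted p = 0.0356 under the GC correction). After miR-181c-5p it was 0.14 ± 0.107 in D538G (edgeR adjusted p = 0.0415 with the block; 0.00 to 0.28 on leaving out 1 library without it) and 0.12 ± 0.064 in WT. TFAP2C was not called in any treatment, under any alternative run here. Its changes ran from −0.10 to 0.11, and 7 of 14 same-clone mimic pairs were higher. In Y537S the clones of TFAP2C lay further apart than either mimic moved them, at 107 and 141 CPM after miR-331-3p and 119 and 141 CPM with the control. After the let-7f-5p inhibitor they were at 121 and 128 CPM, against 113 and 137 CPM in the inhibitor control.

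XBP1 is the transcription factor of the unfolded protein response. It was the only 1 of the 9 factors for which edgeR without the block or the GC correction called a difference in response between genotypes. After miR-331-3p it was at 1355 and 1214 CPM in Y537S, against 850 and 885 CPM with the control. These were the 2 highest XBP1 levels of the 24 libraries. In WT, where XBP1 was higher at the start, it was at 1133 and 1192 CPM against 1055 and 1096 CPM. No clone overlapped its control in either genotype.

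The XBP1 log2 fold change after miR-331-3p was 0.59 ± 0.086 in Y537S (edgeR adjusted p = 0.00837), or 1.51 times, with 0.67 and 0.46 in the 2 clones. It was 0.53 under the GC correction (edgeR adjusted p = 0.0188). In WT it was 0.14 ± 0.053 (edgeR adjusted p = 0.082), called with the clone block (edgeR adjusted p = 0.00493) and under the GC correction (0.20, edgeR adjusted p = 0.038). The difference between the responses was 0.44 ± 0.106 (edgeR adjusted p = 0.0369; DESeq2 adjusted p = 0.00364; 4.52e-06 with the clone block). This was 1 of 9 factors, where 9.94% of 15666 genes were called. It was 0.32 under the GC correction, not called (edgeR adjusted p = 0.103), where SPDEF was called instead (0.37, edgeR adjusted p = 0.0361), and 0.32 with the correction and the block together (edgeR adjusted p = 0.000371). Leaving out single libraries gave 0.34 to 0.51, and the call was lost in 7 of 8, the exception being treated Y537S clone 2. With the clone block 2 of 9 were called (background 34.1%), the second being SPDEF, 0.30 ± 0.105 (edgeR adjusted p = 0.107, and 0.00132 with the block).

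XBP1 went the other way after miR-181c-5p. In WT it was at 885 and 936 CPM against 1055 and 1096 CPM, −0.25 ± 0.065 (edgeR adjusted p = 0.0291). No other decrease of the 9 factors was called in a treatment by edgeR without the block. It holds no miR-181c-5p match in the searched 3′UTR. The call was lost without treated clone D1 (−0.21, edgeR adjusted p = 0.0798), control clone D1 (−0.28, edgeR adjusted p = 0.0979) or control clone D4 (−0.23, edgeR adjusted p = 0.141). In D538G the clones were at 934 and 844 CPM against 1008 and 904 CPM, overlapping, −0.09 ± 0.077. After miR-301b-3p XBP1 differed from its control by −0.04 ± 0.079 in Y537S, 0.00 ± 0.079 in D538G and −0.11 ± 0.070 in WT (edgeR adjusted p = 0.358, and 0.0394 with the block).

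The 18 XBP1 target genes examined encode chaperones, translocon parts and degradation factors of the endoplasmic reticulum. Counts per gene do not separate spliced from unspliced XBP1 mRNA, so XBP1 activity was not measured here. After miR-331-3p in Y537S, 7 were called higher and 1 lower (background 33.0% of all genes), with a median log2 fold change of 0.27 beside −0.01 over all genes. The largest were SDF2L1 (1.04, edgeR adjusted p = 0.0076), a chaperone cofactor, and PDIA4 (0.91, edgeR adjusted p = 0.00849), a protein disulfide isomerase. In WT, where XBP1 was not called, 5 were higher and 2 lower (background 24.8%) with a median of 0.05. There SDF2L1 rose by 0.60 (edgeR adjusted p = 0.00474), which was 0.13 and not called under the GC correction (edgeR adjusted p = 0.531), and PDIA4 by 0.57 (edgeR adjusted p = 0.000176). Tested as a difference between the genotypes, 1 of 18 targets was called for miR-331-3p (background 9.94%), and 8 with the clone block (7 higher in Y537S, background 34.1%).

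PDIA4 was called higher in all 7 mimic comparisons, from 0.53 to 0.94, including those in which XBP1 was not called higher. Under the GC correction it was called in 6 of 7, the exception being miR-301b-3p in Y537S (0.89, edgeR adjusted p = 0.0634). HSPA5, the main chaperone of the compartment, fell after miR-181c-5p by 0.58 in D538G (edgeR adjusted p = 0.00173) and by 0.68 in WT (edgeR adjusted p = 0.000687). SRPRB, a receptor subunit for signal recognition, fell after miR-301b-3p by 0.55 in D538G (edgeR adjusted p = 0.0071) and by 0.75 in WT (edgeR adjusted p = 0.00725). Counts higher and lower after miR-301b-3p were 1 and 0 in Y537S (background 3.57%), 2 and 2 in D538G (11.8%) and 5 and 2 in WT (8.50%). After miR-181c-5p they were 2 and 1 in D538G (9.52%) and 3 and 3 in WT (16.4%). In the mimic control, 9 of 18 were lower in Y537S than in WT and none higher (background 29.0%, and 12.7% lower), with a median of −0.25, led by HERPUD1 (−1.01, edgeR adjusted p = 0.00974). In D538G 3 were higher and 4 lower (background 38.9%, and 18.5% lower).

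**Figure D5:**
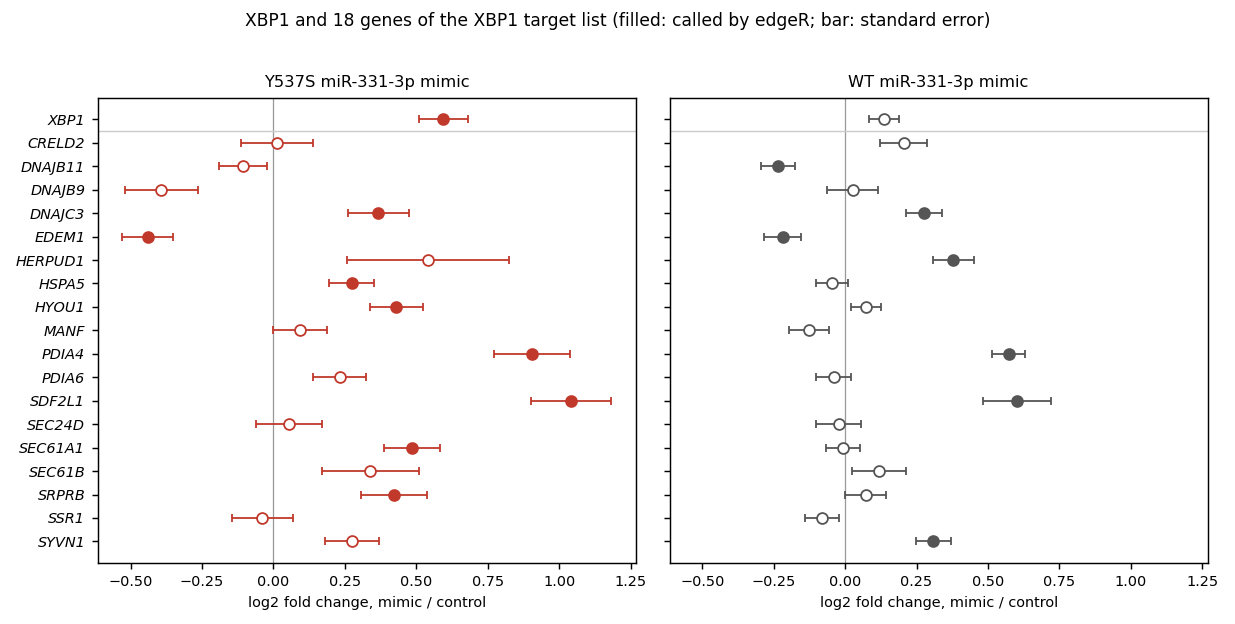
Log2 fold change (±SE) of XBP1 and the 18 target genes after the miR-331-3p mimic in Y537S and WT cells, with filled symbols for edgeR adjusted p under 0.05. XBP1 lies at 0.59 in Y537S and 0.14 in WT, and SDF2L1 and PDIA4 are called in both.

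GRHL2, which maintains epithelial junction genes, was lower after miR-301b-3p in Y537S, at 260 and 247 CPM against 283 and 273 CPM. The same held in WT, at 211 and 223 CPM against 236 and 248 CPM, with no overlap in either. The changes were −0.16 ± 0.080 (edgeR adjusted p = 0.303) and −0.16 ± 0.072 (edgeR adjusted p = 0.193), and both were called with the clone block (edgeR adjusted p = 0.0175 and 0.0188). In D538G the change was −0.04 ± 0.087. GRHL2 holds no miR-301b-3p match in its 3′UTR.

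Its relative GRHL1 responded to miR-331-3p, although its searched 3′UTR holds no miR-331-3p match. In Y537S GRHL1 was at 53.9 and 55.1 CPM with the control and 29.1 and 33.4 CPM after the mimic, a fall of 0.78 on the log2 scale (edgeR adjusted p = 0.00865). In WT it was at 58.8 and 54.6 CPM against 47.9 and 48.1 CPM, a fall of 0.22 (edgeR adjusted p = 0.0493), which was −0.06 and not called under the GC correction (edgeR adjusted p = 0.621). The difference between the responses was −0.58 ± 0.132 (edgeR adjusted p = 0.0319). GRHL3, the third of the family, rose by 0.63 in Y537S (edgeR adjusted p = 0.0385) and 0.59 in WT (edgeR adjusted p = 0.0483), and neither was called under the GC correction (edgeR adjusted p = 0.0937 and 0.114). GRHL2 itself differed from its control by −0.06 ± 0.086 in Y537S and −0.07 ± 0.058 in WT after this mimic.

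RUNX1 varied more between clones than between treatments in Y537S and WT cells. In Y537S it was at 68.5 and 49.8 CPM with the control, 68.6 and 44.4 CPM after miR-331-3p and 55.5 and 40.6 CPM after miR-301b-3p. Treated and control libraries overlapped in all 7 mimic comparisons. After miR-301b-3p in Y537S the change was −0.32 ± 0.198 (edgeR adjusted p = 0.388), with −0.31 and −0.29 in the 2 clones, and it was called with the clone block (edgeR adjusted p = 0.000336). Without the block, leaving out 1 library gave −0.56 to −0.07. After miR-331-3p, whose 8-base match is printed above, RUNX1 differed from its control by −0.04 ± 0.242 in Y537S and 0.00 ± 0.180 in WT. The 95% intervals without the block were −0.64 to 0.56 and −0.40 to 0.39, and neither change was called with the block. After miR-181c-5p it differed from its control by 0.04 ± 0.106 in D538G and −0.04 ± 0.169 in WT.

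CBFB, which RUNX1 needs as a partner to bind DNA stably, fell after miR-301b-3p. It went from 26.3 and 31.2 CPM to 14.5 and 14.2 CPM in D538G and from 27.0 and 24.5 CPM to 15.7 and 12.8 CPM in WT. In Y537S it went from 30.2 and 44.7 CPM to 13.8 and 20.3 CPM. Treated libraries were below both controls in every genotype. The log2 fold change was −0.99 ± 0.129 in D538G (edgeR adjusted p = 0.00447) and −0.86 ± 0.135 in WT (edgeR adjusted p = 0.0104). In Y537S it was −1.16 ± 0.259 (edgeR adjusted p = 0.0702, and 1.91e-21 with the clone block). Under the GC correction it remained called in D538G (−0.79) and WT (−0.68). The CBFB 3′UTR holds an 8-base miR-301b-3p match, as do 2.87% of the 18770 genes with a 3′UTR. It is shown because RUNX1 itself has none.
CBFB, miR-301b-3p: caaactgccatggttTTGCACTa
It lies at chr16:67132825-67132847 (GRCh37, plus strand), with the 7-base match in capitals.

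GATA6, a relative of GATA3, was lower after miR-181c-5p in WT, at 7.21 and 7.70 CPM against 13.6 and 11.6 CPM, −0.76 ± 0.161 (edgeR adjusted p = 0.0109). Its 3′UTR holds an 8-base miR-181c-5p match, as do 6.29% of the 18770 genes with a 3′UTR.
GATA6, miR-181c-5p: cagcattttttataaTGAATGTa
It lies at chr18:19781491-19781513 (GRCh37, plus strand). In D538G the GATA6 change was −0.44 ± 0.145 (edgeR adjusted p = 0.0877). Of the 19 relatives and partners examined, 13 or 14 passed the filter in each comparison. After miR-331-3p 2 were called higher and 1 lower in Y537S (background 33.0% of all genes) and 2 higher and 5 lower in WT (24.8%), and after miR-181c-5p 1 higher and 2 lower in WT (16.4%). In D538G edgeR and DESeq2 called none after miR-181c-5p (9.52%), with 4 at an unadjusted p under 0.05 in edgeR. CBFB alone was called after miR-301b-3p, in D538G and in WT, and in Y537S edgeR called none (3 at an unadjusted p under 0.05, 3 called by DESeq2). In the mimic control EHF, an ETS factor close to ELF3, was at 493 and 479 CPM in WT, 264 and 289 CPM in Y537S and 193 and 189 CPM in D538G. That was a log2 difference of −0.78 in Y537S (edgeR adjusted p = 0.000683) and −1.34 in D538G (edgeR adjusted p = 3.35e-06). RUNX2 was at −1.30 relative to WT in Y537S (edgeR adjusted p = 0.00643) and at −1.02 in D538G (edgeR adjusted p = 0.000607). GATA4 was higher by 2.82 in Y537S than in WT (edgeR adjusted p = 0.00805), at no more than 1.95 CPM in any library. The EHF 3′UTR holds 5 7-base matches to miR-181c-5p and 1 each to miR-331-3p and let-7f-5p. RUNX2 holds 1 to miR-301b-3p and GATA4 1 to miR-331-3p.

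The let-7f-5p inhibitor, given to Y537S cells only, called none of the 9 factors and none of all 15140 genes tested by edgeR (0.00%). At an unadjusted p under 0.05 there were 786 genes and 0 factors, and DESeq2 called 79 genes and 0 factors. With the clone block, 3 of 9 factors were called where 11.2% of genes were. TFAP2A was at 261 and 257 CPM against 276 and 295 CPM in the inhibitor control, −0.14 ± 0.072 (edgeR adjusted p = 0.0142 with the block; −0.19 to −0.09 on leaving out 1 library without it). FOXA1 was at 467 and 404 CPM against 491 and 436 CPM, −0.09 ± 0.10 (edgeR adjusted p = 0.0493 with the block; −0.20 to 0.01 on leaving out 1 library without it). GRHL2 was at 288 and 289 CPM against 269 and 253 CPM, 0.14 ± 0.066 (edgeR adjusted p = 0.00835 with the block). The other 6 had log2 fold changes of −0.15 to 0.13.

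For the other 3 response differences between a mutant and WT, no factor was called by edgeR. For miR-301b-3p, 0.00632% of genes were called between Y537S and WT (343 genes and 1 factor at an unadjusted p under 0.05; DESeq2 1 gene and 0 factors) and 0.00640% between D538G and WT (478 genes and 0 factors; DESeq2 2 genes and 0 factors). For miR-181c-5p, 0.00646% were called between D538G and WT (453 genes and 0 factors; DESeq2 2 genes and 0 factors). The largest was SPDEF after miR-301b-3p, higher in Y537S by 0.29 ± 0.118 (95% interval 0.02 to 0.55; edgeR adjusted p = 1; 0.00612 with the block and the GC correction, at 0.32). With the clone block none of the 9 was called in these 3 differences either, where 0.202%, 0.147% and 0.0775% of genes were.

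ESR1, which is not among the 9, was lower than control in all 14 same-clone mimic pairs, by −0.96 in Y537S (edgeR adjusted p = 0.092, and 6.65e-34 with the block), −0.87 in D538G (edgeR adjusted p = 0.00466) and −0.70 in WT (edgeR adjusted p = 0.00321) after miR-301b-3p. After miR-181c-5p it was lower by −0.60 in D538G (edgeR adjusted p = 0.0074; 0.0543 under the GC correction) and −0.66 in WT (edgeR adjusted p = 0.000496). After miR-331-3p it was lower by −0.36 in WT (edgeR adjusted p = 0.00253) and −0.33 in Y537S (edgeR adjusted p = 0.388; blocked fit 1.98e-05), where leaving out 1 library without the block gave −0.67 to 0.00. Of the 18 other luminal transcription factors examined, ESR1 among them, 4 were higher and 1 lower after miR-331-3p in Y537S (background 33.0%), and 5 higher and 3 lower in WT (24.8%). ZNF703 and RARA led both, at 0.78 and 0.67 in Y537S and 0.43 and 0.42 in WT, which were 0.39, 0.30, −0.04 and 0.09 under the GC correction. After miR-181c-5p in WT 3 were higher and 5 lower of 17 tested (background 16.4%), led by PGR (−0.86) and MYB (−0.70). After miR-181c-5p in D538G 2 were lower (9.52%). After miR-301b-3p 1 was higher and 1 lower in Y537S (3.57%), 1 higher and 3 lower in D538G (11.8%), and 2 lower in WT (8.50%). In the mimic control 6 were higher and 5 lower in Y537S than in WT (29.0%), and 7 higher and 5 lower in D538G (38.9%), where MYB was higher by 0.98.

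After miR-331-3p, 9 luminal differentiation markers were called higher and 1 lower of 19 tested in Y537S (background 33.0%), and 7 higher and 1 lower of 18 in WT (24.8%). This mimic also called the most genes over all. TFF3, a secreted trefoil peptide, rose by 1.55 in Y537S (edgeR adjusted p = 0.00665). CLDN4, a tight junction claudin, was called higher in all 7 mimic comparisons, from 0.51 to 0.98. Under the GC correction it was 0.26 to 0.63, and it was not called after miR-301b-3p in Y537S (0.26, edgeR adjusted p = 0.211) or D538G (0.34, edgeR adjusted p = 0.0866). Other luminal markers fell. CA12 was called lower after miR-301b-3p by edgeR, at −1.10 in Y537S, −0.74 in D538G and −0.87 in WT. PRLR was called lower after miR-181c-5p, at −0.65 in D538G and −1.12 in WT. Under the GC correction CA12 was not called in Y537S (−1.10, edgeR adjusted p = 0.0636). Nor was PRLR in D538G (−0.47, edgeR adjusted p = 0.17). In the mimic control 4 of the 20 luminal markers were higher and 9 lower in Y537S than in WT (background 29.0%, and 12.7% lower). In D538G 3 were higher and 7 lower (background 38.9%, and 18.5% lower). The largest of these differences were increases, TFF1 (4.92) and TFF3 (1.47) in Y537S and TFF1 (3.16) and CA12 (1.04) in D538G. TFF1 was at no more than 5.72 CPM in any library. Of the basal and myoepithelial markers, 6 or 7 of 12 passed the filter. Neither edgeR nor DESeq2 called any in a treatment, and edgeR gave 1 at an unadjusted p under 0.05, after miR-301b-3p in WT. The stromal gene COL1A1 was called higher in WT after miR-301b-3p (0.41, edgeR adjusted p = 0.0242) and miR-331-3p (0.33, edgeR adjusted p = 0.0191). Neither COL1A1 change was called under the GC correction (edgeR adjusted p = 0.344 and 0.959). Between genotypes in the mimic control, TP63, a basal factor, was at −3.97 relative to WT on the log2 scale in Y537S (edgeR adjusted p = 0.00197). It was at −3.06 in D538G (edgeR adjusted p = 0.000478). TP63 was low throughout, with a median of 0.75 CPM and no more than 8.25 CPM in any library. EGFR was higher by 0.82 in D538G (edgeR adjusted p = 0.00258). The stromal gene COL3A1 was higher by 4.07 in D538G than in WT (edgeR adjusted p = 0.00411), at no more than 4.86 CPM in any library. The part of these in the genotype differences of the 9 factors was not tested.

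The patterns over the 12 conditions were also set beside those of all other genes, as a description. For SPDEF, whose condition means had an SD of 0.38 on the log2 scale, the closest of 10064 genes were TSC22D4 and TMEM134, at root mean square distances of 0.085 and 0.088 after centring. For TFAP2A (SD 0.31) they were ESPN and PTK2B, both at 0.078. The other 7 factors varied by less than 0.3 and were not matched.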

How the data were processed

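According to the labels and the study's methods, the authors prepared stranded poly-A libraries for Illumina sequencing. HISAT2 placed the reads on hg19, and featureCounts assigned them to UCSC Known Genes. Tool versions are not given in the sources used here. What the authors deposited are raw counts for every gene, in 1 table per genotype, and the 3 tables were joined by symbol. Clone names head the D538G and WT columns and are not tied to the numbers in the labels, so these columns were mapped to a condition only. Some labels transpose the digits of Y537S, and the titles were followed.

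Each comparison was fitted with edgeR 4.0.16 in R 4.3.3 on its own libraries (TMM, filterByExpr defaults, quasi-likelihood F test, two-sided). P-values were adjusted by Benjamini-Hochberg over all genes tested and called under 0.05. The SE is the size of the log2 fold change divided by the square root of F, and 95% intervals use the t distribution with the degrees of freedom of that test. Alternatives were DESeq2 1.42.0, RLE size factors, no filter, all 24 libraries in 1 fit, a lowess GC correction (span 0.3), the clone as a replicate block, both together, and leaving out each library. The clone was used as a block because libraries of 1 clone share a cell line. Their clone differences correlated across 16383 genes at 0.43 to 0.47 in Y537S, 0.15 to 0.17 in D538G and 0.12 to 0.18 in WT cells. Libraries of a condition differed with a chi-square of 10.7 to 45.6 per degree of freedom, so none were copies. The exact permutation test of 2 against 2 cannot give p below 0.333 and was not used. Nothing says that the clones were cultured more than once, so p-values measure the spread between these libraries.

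Gene models were GENCODE v44 lifted to GRCh37, with GC values for 90.4% of genes. The 9 factors, the gene lists and the tests were chosen with earlier results of these data known. By rule, the 9 factors and ESR1 were described in every comparison. From each list at most the 2 called genes with the largest change in a comparison were named, and some of these were followed into other comparisons. Like genes were sought for factors with an SD of at least 0.3. The edgeR fits were also run on simulated counts with known changes and a fixed dispersion for all genes. No conclusion on the calls is drawn from them here.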

Additional observations from a re-analysis of the deposited data

Results flagged for a closer look

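The response of XBP1 to the miR-331-3p mimic differed between genotypes by the test of the difference itself. It was 0.44 higher in Y537S than in WT cells on the log2 scale (SE 0.106, edgeR adjusted p = 0.0369), with changes of 0.59 and 0.14. The same-clone changes were 0.67 and 0.46 in Y537S and 0.10 and 0.12 in WT. The value was 0.32 under the GC correction (edgeR adjusted p = 0.103). Leaving out 1 library gave 0.34 to 0.51 and ended the call in 7 of 8 cases. The part of the lower XBP1 level of Y537S control clones (850 and 885 CPM, against 1055 and 1096 CPM in WT) was not tested.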

How the results depend on the processing

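Counts of the 9 factors called changed most with the clone as a replicate block. Main counts and their values were, for miR-301b-3p in Y537S, 1, with 6 under the block, 6 with block and GC correction, 0 with GC correction, 2 by DESeq2 and 2 with all 24 libraries in 1 fit. For miR-331-3p in Y537S, 3 became 5 under the block and 5 with block and GC correction. For let-7f-5p, 0 became 3 and 4. For miR-301b-3p in D538G, 1 became 2 under the block and 0 with GC correction. For miR-181c-5p in D538G, 1 became 4 under the block, 4 with block and GC correction, 0 with GC correction and 2 with no filter. For miR-301b-3p in WT, 1 became 3 under the block, 3 with block and GC correction and 0 with GC correction. For miR-331-3p in WT, 2 became 4, 4 with both and 1 with all 24 libraries. For miR-181c-5p in WT, 3 became 1 with GC correction and 1 with all 24 libraries. Between Y537S and WT, 4 became 6 with no filter, 6 with all 24 libraries, 5 with GC correction and 5 by DESeq2, each with GRHL2 called higher. Between D538G and WT, 3 became 5 with no filter. Between Y537S and D538G, 0 became 1 with no filter, DESeq2 or all 24 libraries. Response differences between Y537S and WT rose from 0 to 1 with block and GC correction for miR-301b-3p, and from 1 to 2 under the block and 3 with both for miR-331-3p. The change of SPDEF after miR-181c-5p in WT turned from 0.30 to −0.0373 under the GC correction and −0.0378 with the correction and the block. No paired analysis was possible between genotypes because their clones differ.

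Leaving out 1 library each gave counts of 0 to 1 for miR-301b-3p, 2 to 2 for miR-331-3p and 0 to 0 for let-7f-5p in Y537S. It gave 1 to 2 for miR-301b-3p and 1 to 1 for miR-181c-5p in D538G, and 0 to 1, 1 to 2 and 0 to 2 for miR-301b-3p, miR-331-3p and miR-181c-5p in WT. It gave 2 to 6 for Y537S against WT, 2 to 5 for D538G against WT and 0 to 1 between the mutants. For response differences it gave 0 to 0, 0 to 1, 0 to 0 and 0 to 0. Such fits leave 1 group with a single library, which is assumed to vary like the others.

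With 2 clones per genotype, the fit without the block carries the clone differences in its SE, most for RUNX1. Counts per library (1462 or more) did not limit any of the 9. The causes of these shifts were not tested.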
